A study of Macaca mulatta with 30 samples.

Results

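ENO2, UCHL1 and THY1 are 3 genes long used as markers of neurons, and their signals were compared over 5 rhesus macaque RNAs on 30 Affymetrix rhesus GeneChips. The genes were chosen by their measured tissue means in these same arrays, so the levels, the differences between tissues and the order of the tissues below are a description and carry no test. Their members were every probe set that the platform annotation gives 1 gene symbol and assigns to 1 of these genes. There were 6 such probe sets, 1 for ENO2, 3 for UCHL1 and 2 for THY1, of 24969 probe sets with 1 symbol (14133 genes) and 52865 in all. No probe set with several symbols named these genes. The probe sets of a gene are numbered here by mean signal, the brightest first. All 3 genes had been proposed as high outside cerebral cortex. On its only probe set, ENO2 was higher in fibroblast, pancreas and testis than in cerebral cortex. UCHL1 and THY1 had their highest mean in cerebral cortex, and UCHL1 was also high in fibroblast.

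RNA came from cerebral cortex, pancreas, testis and thymus and from 1 line of immortalized fibroblasts in culture. The cortex RNA was extracted at Yerkes, the fibroblast RNA at Nebraska and the other RNAs at Oregon. Each of these centers received 2 aliquots of every RNA, labeled 5 µg of each and hybridized it to an array of its own, which gives 6 arrays per tissue and 10 per center. No treatment was given, and the sources used here name no age, sex or number of animals. Since each tissue is 1 RNA, the spread between arrays is that of labeling, hybridization and center, and not that between animals. In tissue RNA a lower signal may come from fewer cells of a type or from less RNA per cell, which cannot be told apart here.

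Each gene has a role outside its use as a marker. ENO2, neuron-specific or gamma enolase, catalyzes the enolase step of glycolysis, and neuroendocrine cells make it too. UCHL1, also known as PGP9.5, is a deubiquitinating enzyme that is very abundant in neurons and also marks spermatogonia in primates. THY1 is a small glycoprotein of the immunoglobulin superfamily, held in the membrane by a glycosylphosphatidylinositol (GPI) anchor. It is found on neurons and fibroblasts, and it is the classical thymocyte antigen of the mouse.

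The arrays carried the markers of their labels. All 4 neuron markers measured (SYT1, NRGN, VSNL1 and STMN2) were called higher in cerebral cortex than in each other tissue. All 5 fibroblast markers were so called in fibroblast and all 4 acinar markers in pancreas. All 3 thymocyte markers were called in thymus and all 3 germ cell markers in testis. Such calls made up 7.47% of all probe sets for testis, 10.1% for fibroblast, 10.8% for cerebral cortex, 12.6% for thymus and 25.3% for pancreas. The fibroblast marker COL3A1 lost its call under several alternatives, as given below. Of 3 endothelial genes 1 was called in pancreas and 1 in thymus. Of 2 Schwann cell and nerve genes 1 was called in cerebral cortex and 1 in pancreas. Averaged over its 4 genes, the neuron marker signal was 12.67 in cerebral cortex and 6.59 in fibroblast (6 arrays, 6.40 to 6.96). Array medians lay from 5.95 to 6.19 for Oregon, from 5.97 to 6.22 for Nebraska and from 6.58 to 6.81 for Yerkes. The pancreas arrays had the highest median at every center, and by the study's own quality measures they were the poorest. Pancreas values therefore depend on the scaling, as given below for ENO2 and THY1.

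On its only probe set, ENO2 was lowest in cerebral cortex and thymus. Its probe set (MmugDNA.3712.1.S1_at, Entrez gene 714208) had a log2 signal of 7.66 at the lowest, 7.80 at the median and 7.98 at the highest of the 6 cerebral cortex arrays. On the fibroblast arrays these values were 11.35, 11.49 and 11.65. On the pancreas arrays they were 9.77, 9.83 and 9.88. Fibroblast and pancreas thus stood apart from cerebral cortex and from each other on every array. The testis arrays lay between 8.76 and 9.09 with a median of 9.03. The thymus arrays, between 7.75 and 7.98 with a median of 7.80, overlapped those of cerebral cortex.

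**Figure D1:**
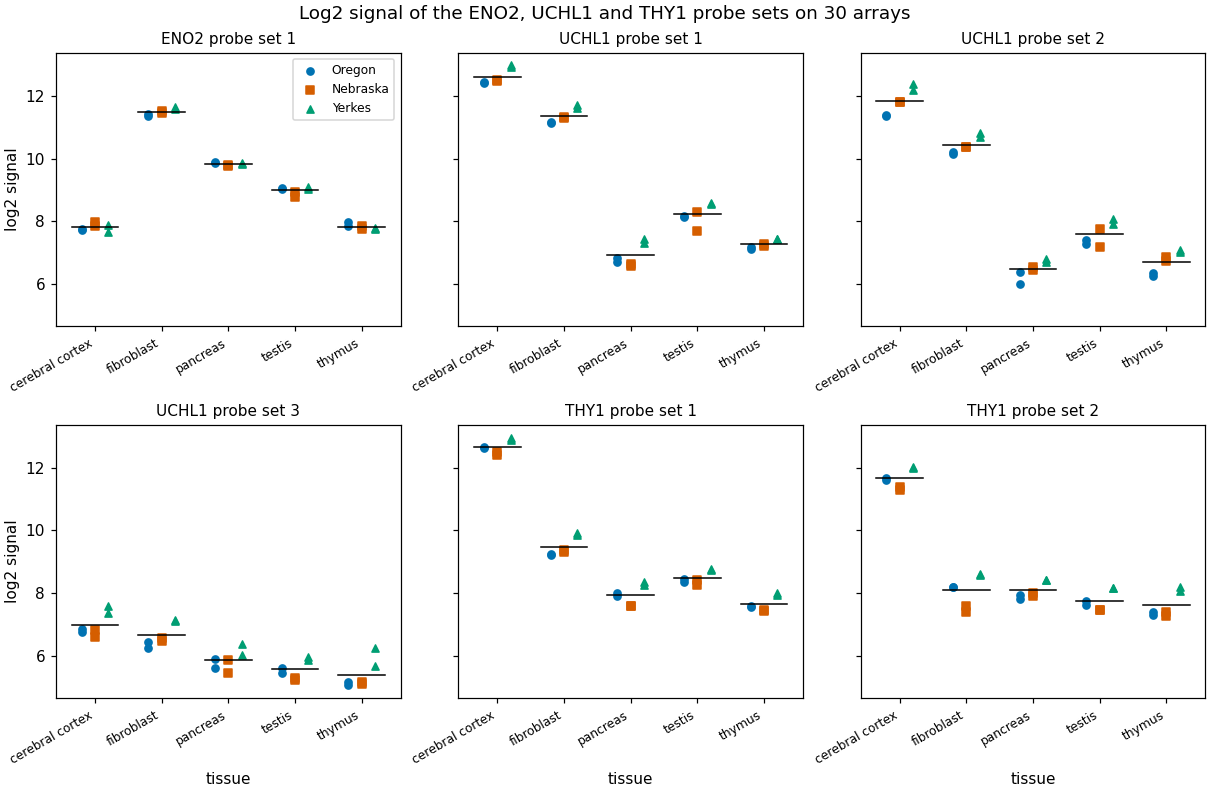
Log2 signal (y axis) of the 6 probe sets of ENO2, UCHL1 and THY1 of every array, with tissues along the x axis and centers by colour and symbol, with the mean of the 6 arrays of a tissue as a line. ENO2 is highest in fibroblast, at 11.35 to 11.65, and the other 5 probe sets have their highest mean in cerebral cortex.

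In the order of its means ENO2 went from fibroblast (11.50 ± 0.11, SD, n = 6 arrays) to pancreas (9.83 ± 0.04), testis (8.99 ± 0.12), thymus (7.83 ± 0.09) and cerebral cortex (7.81 ± 0.12). Fibroblast exceeded pancreas by a log2 difference of 1.67, pancreas exceeded testis by 0.84 and testis exceeded thymus by 1.16, with no overlap of arrays. Thymus and cerebral cortex differed by 0.02 ± 0.15 (SD over 3 centers), which is within their spread, and cerebral cortex was above thymus at Nebraska and at Yerkes. The difference of fibroblast over cerebral cortex was 3.69 ± 0.14 (SD over 3 centers), a ratio of signals of 12.9. Oregon gave 3.65, Nebraska 3.57 and Yerkes 3.84. Pancreas exceeded cerebral cortex by 2.02 ± 0.14, and testis exceeded it by 1.18 ± 0.21. The gaps beside pancreas moved with the scaling. When all 30 arrays were quantile normalized jointly, pancreas was at 10.41 and testis at 8.91, with pancreas 0.82 below fibroblast and 2.61 above cerebral cortex. With array medians subtracted pancreas was 1.88 below fibroblast, 0.70 above testis and 1.90 above cerebral cortex. ENO2 had no second probe set with which this order could be compared, and whether its probes also take up RNA of another gene was not tested. Nor was it tested whether this probe set detects ENO2 RNA well or is rightly assigned to ENO2.

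UCHL1 was highest in cerebral cortex and second in fibroblast, with a ratio of signals of 2.37 between them on probe set 1. Probe set 1 (MmugDNA.7056.1.S1_s_at, Entrez gene 701579), whose suffix marks probes shared by several transcripts, had its lowest, median and highest cerebral cortex array at 12.41, 12.48 and 12.97. In fibroblast these were 11.13, 11.31 and 11.70. These groups did not overlap, and both lay far above the rest. In testis the arrays ran from 7.68 over a median of 8.23 to 8.58, and 1 of the Nebraska arrays was the lowest. Thymus arrays lay between 7.12 and 7.44 (median 7.23) and pancreas arrays between 6.59 and 7.42 (median 6.77).

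In the order of its means, UCHL1 probe set 1 went from cerebral cortex (12.62 ± 0.26, SD, n = 6 arrays) to fibroblast (11.37 ± 0.24), testis (8.24 ± 0.33), thymus (7.28 ± 0.14) and pancreas (6.91 ± 0.35). This order was the same at each center. Fibroblast was below cerebral cortex by a log2 difference of -1.25 ± 0.06 (SD over 3 centers), and it was above testis by 3.13 ± 0.17, a ratio of signals of 8.78. Testis exceeded thymus by 0.96 ± 0.19. Thymus and pancreas were the only neighbours with overlapping arrays, with a difference of 0.36 ± 0.26 that was 0.08 at Yerkes.

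The 3 UCHL1 probe sets shared their highest tissues but not their range. Probe set 2 (MmugDNA.7056.1.S1_at) kept the order of probe set 1 at every center, with means of 11.82 for cerebral cortex, 10.43 for fibroblast, 7.60 for testis, 6.72 for thymus and 6.48 for pancreas. Fibroblast was below cerebral cortex by -1.39 ± 0.17 (SD over 3 centers) on it. The range over the tissue means was 5.70 on probe set 1, 5.34 on probe set 2 and 1.59 on probe set 3 (MmugDNA.8963.1.S1_at). Probe set 3 was dim. It lay below the median of its array on all 18 arrays of pancreas, testis and thymus, and its arrays ran from 6.62 to 7.59 (median 6.83) for cerebral cortex and from 6.25 to 7.13 (median 6.52) for fibroblast. Here pancreas (mean 5.88 ± 0.33, SD, n = 6 arrays) came before testis (5.57 ± 0.30) and thymus (5.40 ± 0.47), and testis and thymus changed places at Yerkes.

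Gaps between probe sets on the same array take out whatever shifts a whole array. Probe set 1 exceeded probe set 3 by 5.62 ± 0.16 (SD, n = 6 arrays) in cerebral cortex and by 1.03 ± 0.20 in pancreas, so the contrast between tissues was compressed on probe set 3. The gap between probe sets 1 and 2 varied less, from 0.94 ± 0.08 in fibroblast to 0.43 ± 0.29 in pancreas. Over the 15 means of tissue and center, with the mean of each center subtracted, Pearson's r was 0.998 between probe sets 1 and 2, 0.922 between 1 and 3 and 0.930 between 2 and 3. These points share their RNAs and arrays. The identifiers of probe sets 1 and 2 differ only in their suffix, so these probe sets may not be independent measures of UCHL1.

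THY1 was a gene of cerebral cortex on both of its probe sets, with fibroblast a distant next on the brighter one. Probe set 1 (identifier ending in S2_at, Entrez gene 705321) had its lowest, median and highest cerebral cortex array at 12.40, 12.64 and 12.95. On the fibroblast arrays these were 9.22, 9.34 and 9.93, and on the testis arrays 8.27, 8.43 and 8.77. No array of these tissues reached another. The pancreas arrays lay between 7.58 and 8.36 (median 7.94) and the thymus arrays between 7.44 and 8.02 (median 7.57), so this thymocyte antigen of the mouse had its lowest arrays and mean in the macaque thymus.

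By its means, THY1 probe set 1 went from cerebral cortex (12.67 ± 0.21, SD, n = 6 arrays) to fibroblast (9.49 ± 0.32), testis (8.50 ± 0.21), pancreas (7.95 ± 0.33) and thymus (7.67 ± 0.25), in this order at each center. Fibroblast was below cerebral cortex by a log2 difference of -3.18 ± 0.20 (SD over 3 centers) and thymus by -5.00 ± 0.07. Fibroblast exceeded testis by 0.99 ± 0.15 and testis exceeded pancreas by 0.55 ± 0.18. Pancreas and thymus differed by 0.28 ± 0.13. On this probe set fibroblast exceeded pancreas by 1.54, and by 0.90 with the arrays quantile normalized jointly. The arrays of testis and pancreas, and those of pancreas and thymus, overlapped over the 3 centers together but not within any of them. Outside cerebral cortex this order is also that of the mean of 5 fibroblast markers (COL1A1, COL1A2, COL3A1, LOX and TAGLN). Their mean signal was 11.72 in fibroblast, 9.47 in testis, 8.45 in pancreas and 7.57 in thymus, against 6.47 in cerebral cortex. The arrays of this mean lay from 9.14 to 9.88 in testis, from 8.18 to 8.89 in pancreas and from 7.31 to 7.99 in thymus. COL3A1 by itself was at 7.55 in pancreas and 7.54 in testis. The other fibroblast genes listed (FN1, MMP1, MMP3, GREM1 and IL6) had other orders, as did THY1 probe set 2 and the UCHL1 probe sets. The part of stromal cells in the THY1 and UCHL1 signals of these tissues was not tested.

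On THY1 probe set 2 (identifier ending in S1_at) only cerebral cortex stood apart, at 11.66 ± 0.30 (SD, n = 6 arrays). The means of the other tissues were within 0.49 of each other, with fibroblast at 8.10 ± 0.50, pancreas at 8.09 ± 0.27, testis at 7.77 ± 0.32 and thymus at 7.61 ± 0.41. Fibroblast and pancreas differed by 0.02 ± 0.41 (SD over 3 centers), by 0.32 at Oregon, -0.45 at Nebraska and 0.18 at Yerkes, and after quantile normalization of all 30 arrays together fibroblast was 0.51 below pancreas. The second place of fibroblast in THY1 therefore rests on probe set 1.

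THY1 probe set 1 exceeded probe set 2 by 1.38 ± 0.37 (SD, n = 6 arrays) on fibroblast arrays, by 1.00 ± 0.09 on cerebral cortex arrays, by 0.73 ± 0.14 on testis arrays and by 0.06 ± 0.18 on thymus arrays, and the gap was -0.14 ± 0.22 on pancreas arrays. On the fibroblast arrays the gap was 1.02 for Oregon, 1.84 for Nebraska and 1.29 for Yerkes. Pearson's r between both probe sets was 0.951 over the 15 means.

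**Figure D2:**
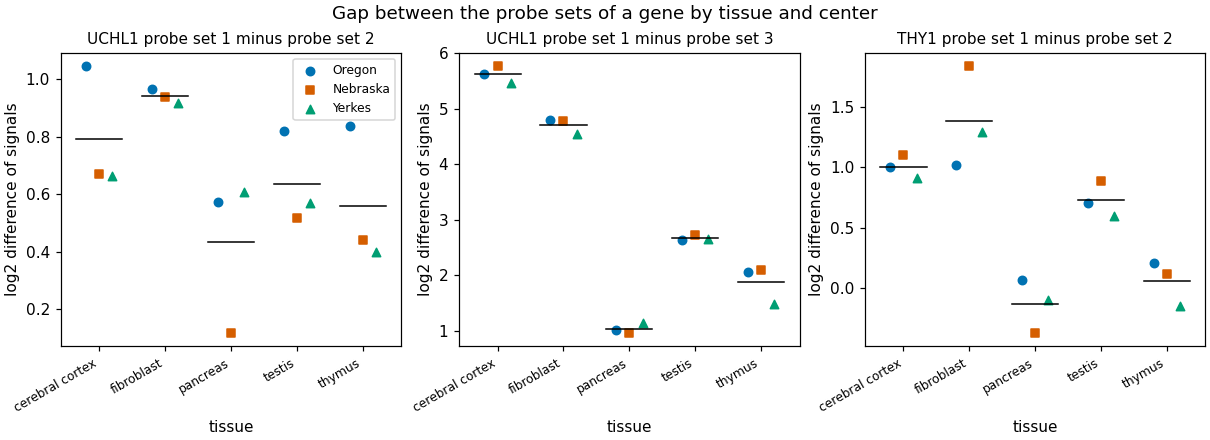
Difference in log2 signal between probe sets of the same gene (y axis) by tissue (x axis), as the mean of 2 arrays at each center (colour and symbol), with the mean of 6 arrays as a line. The gap of UCHL1 probe set 1 over probe set 3 runs from 5.62 in cerebral cortex to 1.03 in pancreas, and that of the THY1 probe sets in fibroblast from 1.02 at Oregon to 1.84 at Nebraska. The y axes of the panels differ and do not start at 0.

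The 3 genes did not share a pattern. Between the brightest probe sets, Pearson's r over the 15 means was 0.910 for UCHL1 and THY1, 0.105 for ENO2 and UCHL1 and -0.214 for ENO2 and THY1. Fibroblast held the first or second place in each, except that on THY1 probe set 2 it could not be separated from pancreas. Pancreas was second for ENO2, last on UCHL1 probe sets 1 and 2 and next to last on THY1 probe set 1. Testis held the middle place for ENO2, on UCHL1 probe sets 1 and 2 and on THY1 probe set 1.

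**Figure D3:**
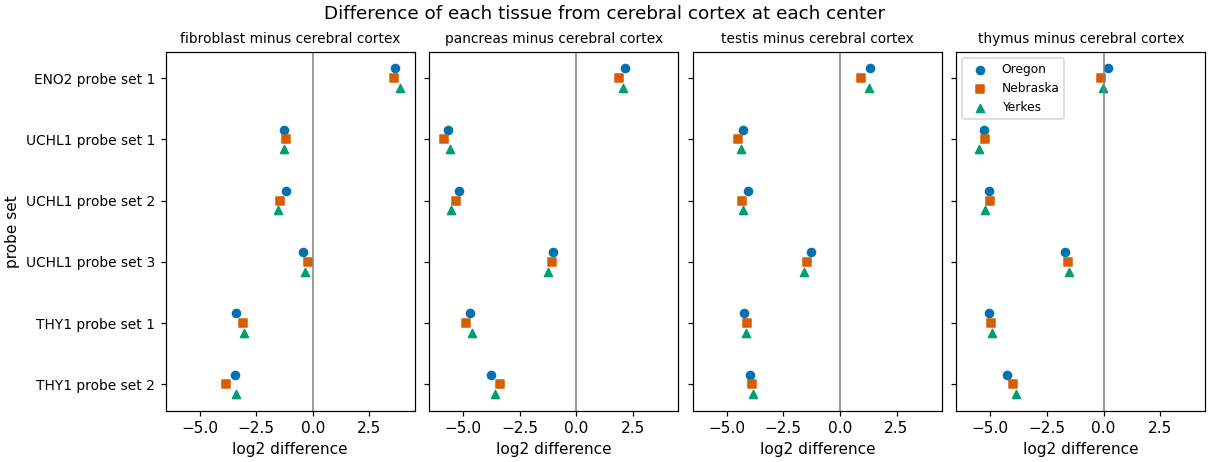
Log2 difference of each of the other 4 tissues from cerebral cortex (x axis) for the 6 probe sets (y axis), as the difference of the means of 2 arrays at each center (colour and symbol). Fibroblast, pancreas and testis lie to the right of 0 for ENO2 at each center, and all 4 tissues lie to its left for the UCHL1 and THY1 probe sets.

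The choice of the genes did not use differences between the centers, but bright probe sets, as most members were, had called interactions more often. With limma, the tissue by center interaction was called at an adjusted p under 0.05 in 2 of the 6 probe sets and in 28.3% of all probe sets. Over the brighter 26432 probe sets it was called in 3 of the 5 members tested and in 59.9% of all. The share among the members was thus near the background in both. The 2 called among all probe sets were the THY1 probe sets. The adjusted p from limma was 0.00104 for THY1 probe set 2, where the 2 fibroblast arrays of Nebraska, at 7.61 and 7.41, were low and the largest departure from additive tissue and center effects was -0.27 on the log2 scale. It was 0.0265 for THY1 probe set 1, with the largest departure, -0.16, in fibroblast at Oregon. The departures were thus in the same tissue but at different centers. The adjusted p was 0.0681 for ENO2, 0.229 for UCHL1 probe set 1, 0.516 for probe set 2 and 0.535 for probe set 3. Without the Nebraska arrays neither THY1 probe set passed (adjusted p from limma of 0.0842 and 0.0671), and without the Oregon arrays or the pancreas arrays probe set 2 alone did.

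Tissue took up 99.6% of the sum of squares of ENO2, 98.8% for UCHL1 probe set 1, 98.0% for its probe set 2, 98.2% for THY1 probe set 1 and 95.3% for THY1 probe set 2. The dim UCHL1 probe set 3 had 76.7% for tissue and 18.8% for center. Since the genes were chosen by their tissue means, a large tissue share follows in part from that choice. The share over all probe sets was not computed. Over the 5 tissues ENO2 had a mean of 9.19 at Oregon, of 9.17 at Nebraska and of 9.21 at Yerkes, although the values of whole arrays were higher at Yerkes, and center took up 0.017% of its sum of squares. The means of UCHL1 probe set 1 were 9.13, 9.12 and 9.59 and those of THY1 probe set 1 were 9.15, 9.04 and 9.57 at these centers. Aliquots hybridized at the same center differed by a median of 0.06 for ENO2, for UCHL1 probe set 1 and for THY1 probe set 1. The largest such difference among the 6 probe sets was 0.61, for UCHL1 probe set 1 in testis at Nebraska.

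Most other neuron genes were marked by cerebral cortex. Of 28 listed, without ENO2, UCHL1 and THY1, 18 had a probe set with 1 symbol, and each gene was represented by its brightest one. In limma, 15 of the 18 were higher in cerebral cortex than in each other tissue, where 10.8% of all probe sets were so called. The median difference between cerebral cortex and the highest other tissue was 3.00 over these 18 genes and -0.46 over all probe sets. VSNL1, a calcium sensor, differed by 6.43 (SE 0.07), NRGN, which binds calmodulin at synapses, by 5.89 (SE 0.09) and SYT1, the calcium sensor of synaptic vesicles, by 5.87 (SE 0.08). The smallest difference among the 15 was that of L1CAM, an adhesion molecule of axons, at 1.03 (SE 0.12). Beside these differences ENO2 stood at -3.69, below all 18 genes, UCHL1 probe set 1 at 1.25 with 4 of the 18 below it, and THY1 probe set 1 at 3.18 with 10 below it.

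The other 3 genes of the list were called elsewhere on their brightest probe set. NCAM1, a neural adhesion molecule of the immunoglobulin superfamily, was at 7.43 in cerebral cortex and 9.51 in thymus, a difference of -2.09 (SE 0.09). Over the mean of its 10 probe sets NCAM1 was instead called in cerebral cortex, at 8.07, with pancreas next at 6.60. GAD2, which makes the transmitter GABA, was at 7.59 in cerebral cortex and 9.49 in thymus. NEFH, the heavy neurofilament subunit, was at 8.83 in cerebral cortex and 9.46 in testis. None of these was highest in fibroblast. In fibroblast 7 of the 18 genes lay below the array median on all 6 arrays, among them NEFH, SYN2, CAMK2A and SLC17A7, the glutamate transporter of synaptic vesicles. A median splits the probe sets of an array evenly, so many probe sets of any kind lie below it. The share over all probe sets was not counted, so this count is no result about neuron genes. GAP43, a growth cone protein, was at 7.70 in fibroblast and at 5.73 or less in pancreas, testis and thymus.

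**Figure D4:**
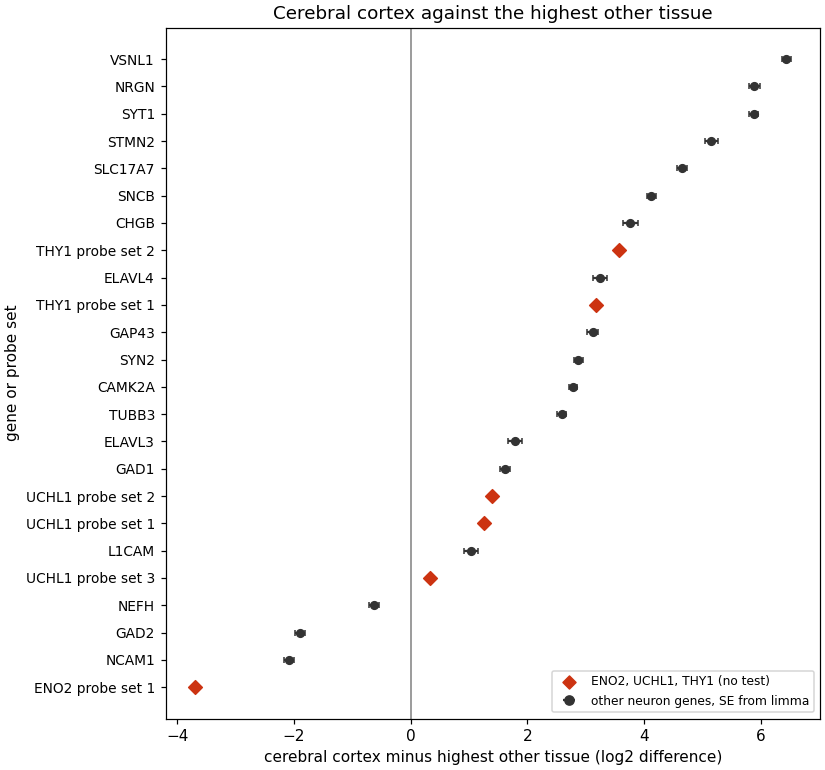
Cerebral cortex minus the highest other tissue, in log2 signal (x axis), for 18 neuron genes, with the SE from limma as a bar, and for the 6 probe sets of ENO2, UCHL1 and THY1, which carry no test (y axis). ENO2 lies at -3.69, to the left of every other point, and UCHL1 and THY1 lie to the right of 0.

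The relatives of ENO2 in glycolysis were compared by their order only, since levels of different probe sets cannot be set against each other. ENO1, the enolase of most cells, was at 12.70 in fibroblast and 12.37 in cerebral cortex, and it was called higher in fibroblast, by 0.33 (SE 0.06). PKM, the pyruvate kinase that follows enolase, was higher in fibroblast by 1.06 (SE 0.17) over cerebral cortex. Of the 5 genes measured of this list of 7, these 2 were called in fibroblast, where 10.1% of all probe sets were. PKLR and PGAM2 were called in pancreas, by 0.40 (SE 0.09) and 0.19 (SE 0.08), where 25.3% of all probe sets were, and the pancreas calls dropped out under several alternatives. ENO4 was called in no tissue and lay below the array median on all fibroblast arrays. The fibroblast calls depended on the probe set. Over the mean of all probe sets of a gene, ENO1 was called in no tissue and PKM was called in cerebral cortex, at 9.47 against 9.10 in fibroblast. ENO1 was also not called after quantile normalization of all arrays together or without a center term.

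Of the ubiquitin hydrolases related to UCHL1, UCHL3 was at 9.94 in fibroblast and at 8.44 or less in the other tissues, and UCHL5, which acts at the proteasome, was higher in fibroblast by 0.84 (SE 0.07). BAP1, a nuclear hydrolase, was called in cerebral cortex, by 0.56 (SE 0.06). So 2 of the 3 measured were called in fibroblast and 1 in cerebral cortex, with the ubiquitin genes of this list of 7 not analysed here. Of all probe sets, 10.1% were called in fibroblast and 10.8% in cerebral cortex. A list of 3 genes is too short to be set against these shares. UCHL3 was at 7.76 in cerebral cortex, its lowest tissue, where UCHL1 had its highest.

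Like THY1, several other GPI-linked immunoglobulin proteins of neurons were highest in cerebral cortex. Of 7 listed, 5 were measured and 3 were called in cerebral cortex, NEGR1 by 3.06 (SE 0.09), CNTN1 by 3.04 (SE 0.10) and LSAMP by 1.27 (SE 0.09). Of all probe sets, 10.8% were called there. NTM was at 8.66 in cerebral cortex, 8.60 in fibroblast and 8.68 in pancreas, with a difference of -0.03 (SE 0.11), and CNTN4 differed by -0.11 (SE 0.12). Over the mean of its 3 probe sets NTM was called in fibroblast, at 9.24 against 8.94 in cerebral cortex. NTM was called in pancreas after quantile normalization of all arrays together and at Nebraska alone. Integrins that bind THY1 had no common tissue. ITGB5 and ITGB2 were called in fibroblast, by 0.85 (SE 0.07) and 1.20 (SE 0.15), ITGAM, of microglia and other myeloid cells, in cerebral cortex by 1.86 (SE 0.10), ITGB3 in pancreas by 0.32 (SE 0.09), and ITGAV in none. The shares of all probe sets called were 10.1% in fibroblast and 25.3% in pancreas. The ITGB3 call was lost with array medians subtracted, without the arrays of replicate 2, at Yerkes alone and without a center term.

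Other lists show how far the tissues' own cells were represented. Of the surface markers used beside THY1 for mesenchymal stromal cells, 3 of the 4 measured were called in fibroblast, CD44 by 0.57 (SE 0.14), ENG by 0.41 (SE 0.14) and ALCAM by 0.24 (SE 0.07), while NT5E differed by -0.04. Among all probe sets 10.1% were called in fibroblast. Without a center term limma called none of CD44, ENG and ALCAM, and after quantile normalization of all arrays CD44 alone. Over the mean of its 5 probe sets ALCAM was called in cerebral cortex, and NT5E was called in fibroblast over the mean of its 3. All 10 fibroblast genes were called in fibroblast, from MMP3, a matrix metalloproteinase, at 9.07 (SE 0.09) to COL3A1 at 0.58 (SE 0.19), whose call was lost after quantile normalization of all arrays, without the arrays of either replicate number, at Nebraska or Yerkes alone and without a center term. Of 7 thymocyte genes measured 6 were called in thymus, where 12.6% of all probe sets were, led by CD8A at 4.52 (SE 0.06) with CD1E as the exception on its brightest probe set (-0.16, SE 0.10). Over the mean of its 3 probe sets CD1E was called in thymus as well, at 10.87 against 8.27 in testis. Thymus RNA thus carried thymocyte genes while THY1 was at its lowest.

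Of 8 germ cell genes measured 4 were called in testis, where 7.47% of all probe sets were, TKTL1 by 5.58 (SE 0.06), DAZL by 2.82 (SE 0.10), SYCP3 by 0.88 (SE 0.14) and SALL4, of spermatogonia, by 0.37 (SE 0.10). The SALL4 call was lost without the arrays of replicate 1, at Yerkes alone and without a center term. The spermatogonial genes ID4 and FGFR3 were called in cerebral cortex, GFRA1 was called in pancreas, a call that 7 of the alternatives with pancreas arrays ended, and ZBTB16 in no tissue. UCHL1, at 8.24 in testis on probe set 1, was above thymus and pancreas there. In pancreas, where ENO2 was second, the islet hormone GCG was called by 7.79 (SE 0.10) and G6PC2 by 1.57 (SE 0.08), and so were all 5 acinar genes, from PRSS2 by 9.11 (SE 0.09) to PLA2G1B by 2.98 (SE 0.08). Of 5 neuroendocrine genes measured 1 was called in pancreas, ISL1, a factor of islet cells, by 0.53 (SE 0.11). That share is near the 25.3% of all probe sets called in pancreas. The granule proteins CHGB and SCG2 and the convertase PCSK2 were called in cerebral cortex, with pancreas next at -3.76, -2.61 and -0.65. INSM1 was called in thymus, at 8.59 there and 7.09 in pancreas. The part of islet cells in the ENO2 signal of pancreas was not tested.

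Among the other 14132 genes with 1 symbol, some followed each member closely. Over the 15 means of tissue and center, the genes most like ENO2 were SELENOS (r = 0.994), PPIC (0.993), KDELR3 (0.993), ITM2B (0.993) and NIBAN2 (0.991). SELENOS and KDELR3 encode proteins of the endoplasmic reticulum and PPIC a cyclophilin. In each of these 5 genes fibroblast was highest and pancreas second, which follows from choosing them by r and is no further result. Their range over the tissues ran from 2.15 for ITM2B to 5.58 for PPIC. UCHL1 ranked 6927 and THY1 ranked 10156 in likeness to ENO2.

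Most like UCHL1 were LOC699404 (r = 0.993), BTBD3 (0.991), CDH13 (0.990), ZBTB33 (0.989) and CCSER2 (0.988). CDH13 is a cadherin with a GPI anchor and ZBTB33 a DNA-binding factor. In each of these genes cerebral cortex was highest and fibroblast next, as in UCHL1, which again follows from choosing them by r. The largest range was 3.86 for LOC699404. Most like THY1 were ADARB1 (r = 0.994), EHD3 (0.992), MAPK3 (0.992), DNAJC6 (0.992) and GAP43 (0.990). ADARB1 edits neuronal RNA, DNAJC6 is the auxilin of nerve terminals and MAPK3 a kinase of the ERK pathway. THY1 ranked 204 in likeness to UCHL1, and UCHL1 ranked 372 in likeness to THY1. With only 5 RNAs behind these points, many genes reach a high r.

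**Figure D5:**
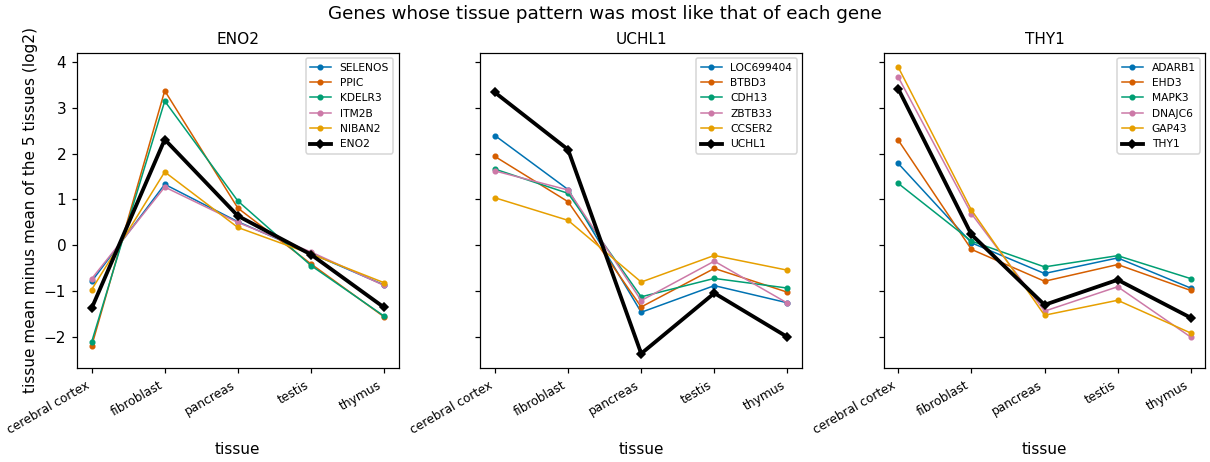
Tissue mean minus the mean of the 5 tissues in log2 signal (y axis) by tissue (x axis) for ENO2, UCHL1 and THY1 (thick black lines, brightest probe set) and the 5 genes most like each (thin lines). PPIC and KDELR3 have wider ranges than ENO2, at 5.58 and 5.26, and all 5 genes like UCHL1 have narrower ranges than its 5.70.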

How the data were processed

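The deposited values are log2 probe set signals of 30 arrays, made by the authors from GCOS images with MAS 5.0 background correction, quantile normalization within each center and an RMA summary over all arrays (software versions not given in the sources used here). Whole-array levels therefore differ between centers, and these steps were not repeated. Genes were named from the platform annotation in GEO, under which 361 probe sets had several symbols and 27535 none. Tissues came from the sample titles. limma 3.58.1 in R 4.3.3 was fitted on all 30 arrays and 52865 probe sets with tissue and center as terms. Calls in a tissue required a positive difference from every one of the other 4 and a Benjamini-Hochberg adjusted p under 0.05 in all of them, adjusted over all probe sets and the 4 contrasts together. The interaction was an F test of 8 terms. Both were run on simulated arrays with independent noise, which held a tissue by center departure only in the probe sets where it was planted. The simulation therefore cannot show how such departures affect the tissue calls. The methods used SAM within each center, which gives no such contrasts, so each center alone was an alternative. Named genes were the members, the list genes with the largest and smallest differences, those not called, and the 5 most alike. Other list genes named were chosen after their values were seen. The members and lists were chosen with earlier results of these data known. P-values measure the spread between technical replicates, and array number limits the precision. The tissue fit treated aliquots of the same tissue and center as independent, although they share any departure of that tissue at that center. The tissue by center interaction was called in 28.3% of all probe sets. The SEs and p-values of the tissue calls can therefore be too small, which matters most for calls with small differences. Alternatives changed the scaling, the center term, the arrays used, the replicate block, the probe set of a gene, the filter on dim probe sets and the variance prior. No sequence or genome position was used here.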

Additional observations from a re-analysis of the deposited data

Results flagged for a closer look

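The tissue pattern differed between the 3 centers in both THY1 probe sets. The adjusted p of the tissue by center interaction from limma was 0.00104 for THY1 probe set 2, with its largest departure of -0.27 in fibroblast at Nebraska. It was 0.0265 for THY1 probe set 1, with its largest departure of -0.16 in fibroblast at Oregon. Of all probe sets, 28.3% passed the same test. Over all centers together, no array of any of the 30 groups of 6 arrays stood out from the rest of its group by Dixon's criterion, which chance passes in about 1 of 20 groups. The centers differ in level, which widens each group's range, so this says little about single arrays, such as the testis aliquots of Nebraska that differed by 0.61 on UCHL1 probe set 1.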

How the results depend on the processing

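The difference of fibroblast from cerebral cortex kept its sign in every alternative. Places of neighbours turned for ENO2 in thymus over cerebral cortex (0.02, -0.07 after quantile normalization of all 30 arrays together, -0.11 at Nebraska), for THY1 probe set 2 in fibroblast over pancreas (0.02, -0.51 and -0.45) and for UCHL1 probe set 3 in testis over thymus (0.17, and -0.05 at Yerkes). Of 267 values, 231 stayed near the reported one and 36 moved. The count of neuron genes called in cerebral cortex was 15 as reported and 13 to 16 otherwise (16 over gene means, with NCAM1). The 13 was over the brighter probe sets, where 16 genes were measured. The filter left out ELAVL3 and SLC17A7, which were among the 15. The difference of fibroblast from cerebral cortex ran from 3.43 to 3.84 for ENO2, -1.73 to -0.33 for UCHL1 and -3.63 to -3.03 for THY1. After quantile normalization of all 30 arrays it was 3.43, -1.73 and -3.63, at Yerkes alone 3.84 for ENO2, over the mean of the UCHL1 probe sets -0.99, on UCHL1 probe set 3 -0.33 and on THY1 probe set 2 -3.56 (probe sets by themselves were added after seeing the data). Their cause was not tested.

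Of 6 member probe sets, 2 had a called interaction, beside 28.3% of all probe sets. There were 4 after that normalization (26.4% of all), 1 without Oregon (7.64%), 0 without Nebraska (16.4%, with 2 members at an unadjusted p under 0.05), 1 without the pancreas arrays (21.1%), and 3 with medians subtracted, with a variance trend (34.2%) and over the brighter probe sets (59.9%). ENO2 passed with array medians subtracted (adjusted p = 0.0492 from limma), with a variance trend (0.0165), over the brighter 26432 probe sets (0.0237) and after quantile normalization of all arrays (0.0337), where UCHL1 probe set 2 did too (0.0449). Enolase list calls in cerebral cortex went from 0 to 1 with medians subtracted, over gene means and without pancreas. Those in fibroblast went from 2 to 1 after quantile normalization of all arrays and without a center term, and to 0 over gene means. Those in pancreas went from 2 to 1 with medians subtracted and at Yerkes alone, to 0 at Nebraska alone and without a center term, and to between 0 and 1 without a replicate number. Integrin calls in pancreas went from 1 to 0 with medians subtracted, at Yerkes alone, without a center term and, without 1 replicate number, to 0 or 1, and in testis from 0 to 1 at Nebraska alone. Mesenchymal calls went from 3 to 1 after quantile normalization of all arrays and at Nebraska alone, to 0 without a center term and to between 1 and 2 without a replicate number. Over these brighter probe sets calls went from 3 to 1 for the GPI-linked list, 4 to 1 for germ cells, 1 to 0 for neuroendocrine and 2 to 0 for islet genes, and each gene that lost its call there had been left out by the filter, islet genes entirely.

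Replicate numbers do not pair the arrays by the rule used, which asks every pair to pass. At a center, the deviations of same-numbered arrays correlated over 0.1 in 3 of 30 pairs of tissues (-0.30 to 0.35). These were the 3 pairs among cerebral cortex, testis and thymus at Yerkes, where fibroblast ran against each of them. In the fit with the replicate block the count of neuron genes was 15 and 2 member probe sets had a called interaction. Without a replicate number the interaction has no residual arrays and was not run. Over all probe sets the interaction was called in 14964, 4038 without Oregon and 8645 without Nebraska. Counts for the pancreas lists cannot be had without the pancreas arrays. Dim signals, as on UCHL1 probe set 3, limit the low tissues.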
